A study of Arabidopsis thaliana with 27 samples.

Results

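The INA time course comprised 6 of the 27 two-colour arrays of the series, chosen by their titles, which name 1 mM INA and a time of 2, 5, 10 or 24 h. There was 1 array each at 2 and 5 h and a pair of arrays each at 10 and 24 h, so that 4 treated RNA samples were measured. Of the 416 named genes on the array, 372 had a value on at least 1 INA array, 218 had one at all 4 times and 134 on all 6 arrays. INA (2,6-dichloroisonicotinic acid) is a synthetic compound that acts in plants as a functional analog of salicylic acid (SA). SA accumulates in leaves under attack and drives the transcriptional reprogramming of systemic acquired resistance, largely through the coactivator NPR1, and INA is known to protect plants without being an antibiotic itself. Such reprogramming is known for defence proteins, detoxifying enzymes and components of the secretory pathway that exports defence proteins.

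The plants were Arabidopsis thaliana of ecotype Columbia, grown in soil for 28 days, sprayed with INA and kept at high humidity. The controls were untreated plants grown in parallel, and no mock spray is described. Treated RNA carried Cy5 and untreated RNA Cy3 on every array, so that an effect of dye, spraying or humidity cannot be told apart from that of INA within the course. The 5 other agents of the series, used here for comparison at the same times, were SA at 5 mM, BTH at 0.5 mM, BABA at 10 mM, ET (ethephon) at 1 mM and methyl jasmonate (MeJA) at 0.1 mM. Plants of several experiments were pooled before extraction, and the arrays of a pair shared their RNA, so each time is 1 sample and the pairs give technical spread alone. The tissue is named both as leaves and as the shoot without root, and none of 6 leaf marker genes looked for was among the named spots, so the tissue could not be checked. PYK10, a beta-glucosidase of root ER bodies and the 1 gene present out of 4 markers of root, seed and flower, lay between -1.93 and -0.26 on the 6 arrays. In whole tissue, fewer cells of a type and less RNA per cell cannot be told apart.

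Each value is the log2 ratio of treated to untreated RNA minus that of the array's median spot, with the base of the logarithm taken as 2. A value of 1 is then 2-fold, and "higher" and "lower" are relative to the median spot. The arrays held 1204 to 2189 spots with a value, out of 2560. The deposited medians ran from -0.65 to 1.49. The tubulin gene TUA5, with 54 spots, was below the median spot throughout, by 0.51, 0.90, 0.78 and 1.35 from the first time to the last. Centring on TUA5 adds these amounts to genes measured on all arrays of a time, and leaving the arrays as deposited adds 0.60, 1.11 and 0.87 at 2, 5 and 10 h and takes 0.15 off at 24 h. Genes on 1 array of a pair shift by that array's own amount. Lower values smaller than these shifts therefore change sign under another centring, and values at 24 h are affected most by the TUA5 scale. Signal over background is unknown, because no intensities were used. One label of the first 10 h array names 2 h where the title and protocols say 10 h. Over spots that array correlated at 0.931 with its repeat and at 0.779 with the 2 h array.

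The first question was how many genes stood apart from untreated plants at each time. At 2 h, 77 of 285 measured genes (27%) were at least 2-fold higher and 30 (10.5%) at least 2-fold lower. At 5 h these were 47 of 358 (13.1%) and 38 (10.6%), and at 10 h 55 of 273 (20.1%) and 39 (14.3%). At 24 h the counts had come down to 26 of 283 genes (9.19%) in each direction. The spread over genes was likewise narrowest at 24 h, with an SD of 0.80 against 1.19 at 2 h, 0.93 at 5 h and 1.18 at 10 h. These counts rest on 1 RNA sample a time and carry no test. On the TUA5 scale 215 genes were 2-fold higher and 1 lower at 24 h. The low count at 24 h thus holds for the median scale and, with 27 higher and 32 lower, for the deposited one. As a share of measured genes it also differed between the arrays. On the median scale the first 24 h array alone had 33 genes higher and 23 lower of 165, and the second 18 and 23 of 276. The low share at 24 h was thus seen on the second array, which measured more genes, and not on the first. Shares over the 158 genes on both arrays were not compared, so array and choice of genes cannot be told apart here.

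**Figure D1:**
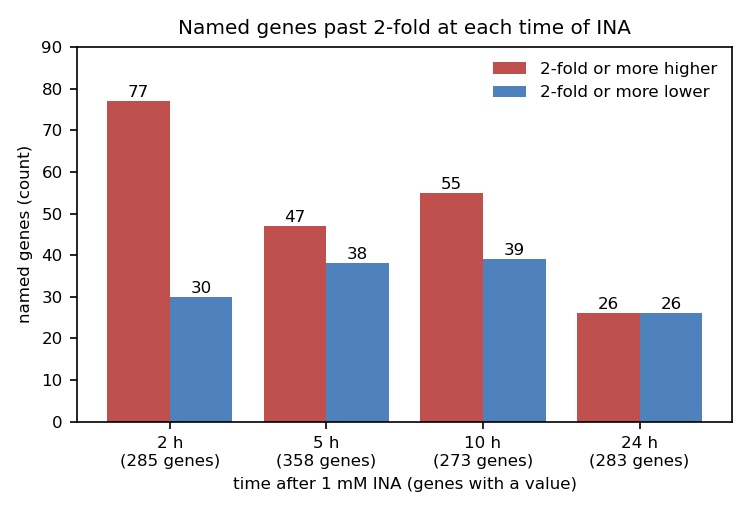
Number of named genes at least 2-fold higher (red) or lower (blue) than in untreated plants at each time of INA, with the number of genes measured under each time; values were centred on the array median, and each time is 1 RNA sample. The higher genes go from 77 at 2 h to 26 at 24 h, and the lower genes are most numerous at 10 h with 39.

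On the median scale, most genes that went high were highest at 2 h. Among genes with all 4 times, 76 were at least 2-fold higher at some time, and the highest value came at 2 h in 43 of them and at 5, 10 and 24 h in 13, 11 and 9. The 59 genes that were 2-fold lower at some time had their lowest value at 10 h most often (23 genes), followed by 2 h (16), 5 h (11) and 24 h (9). From 2 to 5 h, 42 of 278 genes dropped by 2-fold or more and 17 gained as much. Between 5 and 10 h the counts were 15 and 12 of 265. These peak times and steps are for the median scale. Other centrings raise 5 h values more than 2 h values (1.11 against 0.60 as deposited, 0.90 against 0.51 on TUA5). Drops between these times are then smaller, gains are larger, and the time of the highest value can move. The TUA5 scale raises 24 h values by 1.35, which lessens the fall of the higher genes given next. The deposited values deepen that fall. The 77 genes higher at 2 h had a median of 1.49 there, 0.77 at 5 h, 0.92 at 10 h and 0.44 at 24 h. Only 12 of the 54 that were measured at 24 h were still 2-fold higher, 19 had the opposite sign and 23 had no value. The 30 genes lower at 2 h had medians of -1.33, -1.28, -1.21 and -0.83 in the same order, and 12 were still 2-fold lower at 24 h.

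The course from 2 to 24 h was sorted by the times at which a gene passed 2-fold in 1 direction. Of the 218 genes with all 4 times, 18 (8.26%) were past 2-fold at every time, 8 higher and 10 lower. Another 47 (21.6%) were past it at 2 or 5 h alone, 31 of them higher, and 19 (8.72%) at 10 or 24 h alone, 9 of them higher. A further 41 (18.8%) passed it in both phases but not at all times, 5 (2.29%) were past it in opposite directions, and 88 never passed it. The early group depended on 1 array, since it counted 28 genes without the second 24 h array, which leaves fewer genes with all 4 times. On the TUA5 scale the early group held 16 genes, the late group 66 and the group past 2-fold throughout 42.

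The genes held higher from 2 to 24 h were led by oxidative enzymes. AT5G64120, the class III peroxidase 71, of a family that works on cell walls and on hydrogen peroxide, stood at 1.38 at 2 h and 3.06 at 5 h, at 3.98 and 3.24 on the 10 h arrays and at 4.19 and 2.76 on the 24 h arrays. It was thus the highest named gene at both 10 and 24 h, and the only one of the 8 that was lowest at 2 h. Its mean over the 4 times was 2.88 ± 0.26 (SE of the fit; limma, adjusted p = 6.4e-09). The neighbouring genes AT4G20840 and AT4G20830, berberine bridge enzyme-like oxidases, had the opposite course. AT4G20830 stood at 4.01, 3.23, 2.40 and 2.54, 1.64 and 0.88 on the same arrays, and AT4G20840 at 3.73, 3.43, 2.88 and 2.37, 1.96 and 1.19. For both genes the 10 h and 24 h arrays did not overlap. AT5G05600, a 2-oxoglutarate-dependent oxygenase that hydroxylates jasmonate, had 3.56 and 2.40 at 2 and 5 h, 2.29 and 2.01 at 10 h and 2.32 and 1.07 at 24 h. AT2G39210, a major facilitator family transporter, had 3.22, 2.61, 1.94 and 1.62, and 2.62 and 1.73. Its 2 h value was above those of all 5 other agents (0.72 to 2.63). At 5, 10 and 24 h BABA lay above INA (4.48, 3.88 and 3.81), while BTH and MeJA lay below. The mean of this gene did not differ from that of the other agents (0.42 ± 0.28, limma, adjusted p = 0.31). AT4G26910, a subunit of the mitochondrial 2-oxoglutarate dehydrogenase, kept the most even level, between 0.90 and 1.45 on the 6 arrays. AT2G18690 and AT4G34180 complete the group.

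The genes held lower included transporters of nitrogen compounds and proteins of the cell wall and chloroplast. AT3G21670, the nitrate transporter family member NPF6.4, stood at -3.21 at 2 h and -3.43 at 5 h, at -4.63 and -3.05 on the 10 h arrays and at -1.26 and -1.22 on the 24 h arrays. AT2G26690, the related NPF6.2, had -2.65, -2.32, -3.21 and -2.72, and -1.23 and -0.995. In both genes the 24 h arrays lay above all earlier ones. The third measured member of that family, the glucosinolate transporter GTR1, had -0.83, -1.17, -1.94 and -0.84, and -0.67 and -0.75. All 3 members passed the test as lower in their mean over the course, against 27.2% of all tested genes (49 of 180), and GTR1 with the smallest mean (-1.03 ± 0.19, adjusted p = 7.9e-05). GTR1 was not called in the deposited values (-0.42, adjusted p = 0.30) or on the TUA5 scale (-0.14, adjusted p = 0.56). Here and below, families were chosen after their values were seen, so their shares beside all genes are description alone. AT1G29660, a GDSL-type lipase gene, was lowest of all named genes at 2 h (-3.27) and still at -2.03 and -1.91 at 24 h. EXLA1, an expansin-like protein, ran from -2.08 to -1.07 over the 6 arrays and was below every other agent measured at each time, but had too few values elsewhere in the series to be tested. FUG1, a chloroplast translation initiation factor, ran from -2.28 to -1.03, and the aspartic protease gene AT3G54400 from -2.33 to -1.16. AT3G20820, a leucine-rich repeat protein, had -2.28 at 2 h and -1.07 at 24 h, and its mean was below all 5 other agents at each time. The second 10 h array (-1.67) lay above SA (-1.95) and BABA (-2.03), however, and at 5 h SA was close (-1.70 against -1.76). On the TUA5 scale the 24 h means of 6 of the 10 genes, AT3G21670, AT2G26690, AT3G20820, AT3G54400, AT3G28220 and FUG1, turned to between 0.03 and 0.28, and none of the 10 was 2-fold lower then.

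**Figure D2:**
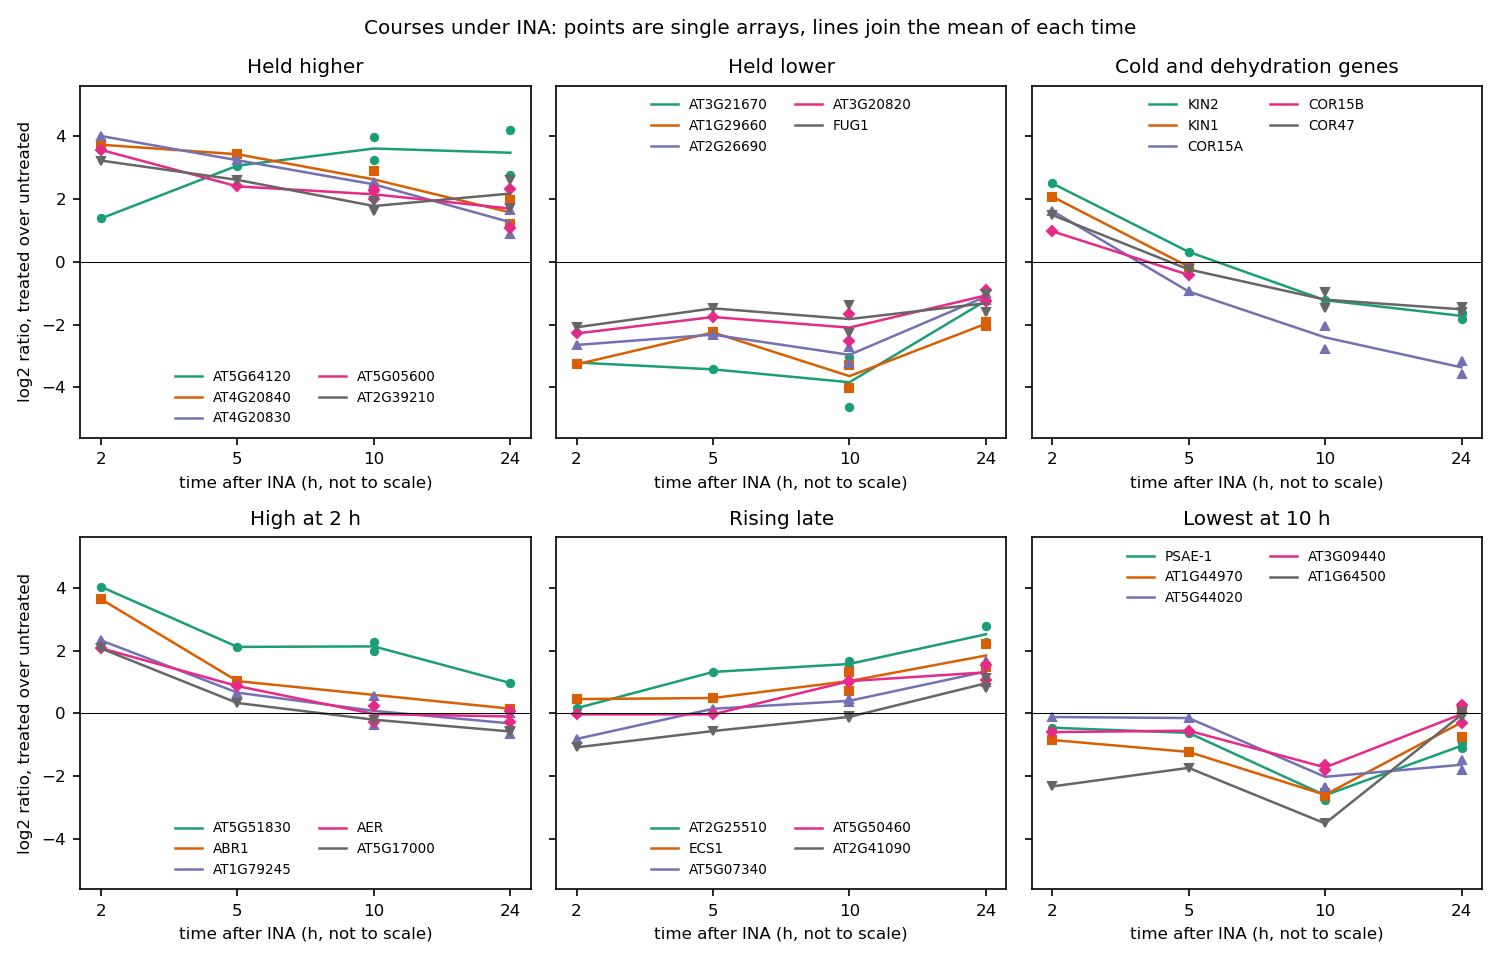
Log2 ratio of treated over untreated RNA (vertical axis) at 2, 5, 10 and 24 h of INA (horizontal axis, evenly spaced) for 30 named genes in 6 groups chosen after their values were seen; points are single arrays, with 2 at 10 and 24 h where both gave a value, and lines join the mean of each time. The 5 cold genes drawn (KIN1, KIN2, COR15A, COR15B and COR47) lie above 0 at 2 h and, where measured, below 0 on every 10 and 24 h array.

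The cold response genes KIN2, COR15A and COR47 lay high at 2 h and low at 10 and 24 h. Of the 7 genes of cold and dehydration responses on the array, 6 were 2-fold higher at 2 h, none at 5 h, and 3 of the 4 measured at 24 h were 2-fold lower. The shares of all measured genes were 27% higher at 2 h, 13.1% at 5 h and 9.19% lower at 24 h. COR15A, a chloroplast protein that protects membranes during freezing, stood at 1.62 at 2 h and -0.95 at 5 h, at -2.78 and -2.04 at 10 h and at -3.17 and -3.56 at 24 h. COR47, a dehydrin, had 1.49, -0.24, -1.46 and -0.95, and -1.44 and -1.59. KIN2, a small protein of the same response, had 2.50, 0.32, a single 10 h value of -1.22, and -1.62 and -1.82. The 2 h value of each gene lay above all its later values, and the 24 h arrays all lay below 0. KIN1 and COR15B, close homologs of KIN2 and COR15A, had values at 2 h (2.08 and 0.97) and 5 h (-0.16 and -0.42) alone, and whether these cDNAs hybridise to each other was not tested. STZ, a zinc finger repressor of stress responses, had 1.91 at 2 h, 0.82 at 5 h and 1.12 at 10 h, and RD2 went from 1.14 at 2 h to -0.21 and -0.50 at 24 h. On the TUA5 scale COR15A (-2.01) was the only one of the 4 still 2-fold lower at 24 h, with -0.38 for KIN2, -0.17 for COR47 and 0.99 for RD2, and 3 of the 7 genes were 2-fold higher at 5 h. The number of genes past 2-fold in opposite directions fell there from 5 to 3. The other members of those 5 were AT3G15450, with 3.13 at 2 h, 2.07 on both 10 h arrays and -0.84 and -1.18 at 24 h, and AT2G30600, a BTB/POZ domain gene, with 1.05 at 2 h and -1.41 on the second 24 h array.

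The change from early (2 and 5 h) to late (10 and 24 h) was tested with a model of agents by phases. None of the 180 genes with enough values passed, higher (0%) or lower (0%), with 25 at an unadjusted p under 0.05 and a smallest adjusted p of 0.18 (limma). COR15A had the largest difference, late minus early, at -3.22 ± 1.16 (adjusted p = 0.20), followed by KIN2 at -2.88 ± 0.96 and COR47 at -1.98 ± 0.62 (both adjusted p = 0.18). At the other end AT5G64120 had 1.32 ± 0.54, AT2G25510 1.31 ± 0.57 and AT2G41090, a calmodulin-like protein, 1.25 ± 0.54 (adjusted p of 0.27, 0.30 and 0.30). With the time entered as a straight line in log2 hours in place of 2 phases, 14 genes passed. The 12 that fell in that fit included COR15A, with a fitted change from 2 to 24 h of -5.02 ± 1.32, KIN2 (-4.33 ± 1.02), COR47 (-3.05 ± 0.54, adjusted p = 0.0056), AT5G51830 (-2.85), AT4G20830 (-2.74) and AT2G30600 (-2.64). AT2G41090 and AT5G07340 rose in it, by 2.01 ± 0.53 and 2.06 ± 0.59. The courses of INA and of the other agents were compared in the same phase model, and no gene differed, higher (0%) or lower (0%), with 1 at an unadjusted p under 0.05 and a smallest adjusted p of 0.99 (limma). That gene, AT5G50460, had a difference of 1.33 ± 0.43. The median SE of such a difference was 0.56, and that of late minus early under INA was 0.52. Both tests could therefore miss changes of 2-fold, and that no gene passed does not show that courses were flat or alike.

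Between 10 and 24 h the repeat arrays allowed a comparison with technical spread. A single array had an SD of 0.39 at both times, over 188 genes at 10 h and 158 at 24 h, and 11 genes at each time differed by 2-fold between arrays of the same RNA. Of the 134 genes on all 4 arrays, 12 (8.96%) were 2-fold higher at 24 h without overlap of the arrays and 11 (8.21%) 2-fold lower. Those that came up were mostly genes far down at 10 h. AT1G44970, the class III peroxidase 9, had -2.55 and -2.64 at 10 h and 0.17 and -0.75 at 24 h. PSAE-1, a photosystem I subunit, had -2.75 and -2.47 and then -1.11 and -0.96, and AT3G09440, a cytosolic heat shock cognate 70 protein, -1.79 and -1.65 and then 0.26 and -0.31. The nitrate transporter genes AT3G21670 and AT2G26690 belonged to these as well. Among the genes that went down, AT3G15450 had the largest step (from 2.07 to -1.01), followed by CCL, named for its likeness to a clock-regulated RNA-binding protein gene, from 2.07 to 0.28, and AT5G14120, a major facilitator family gene, from 1.91 to 0.34. The RNA of each time came from its own plants, whose spread is not known, so these steps exceed the technical spread alone.

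**Figure D3:**
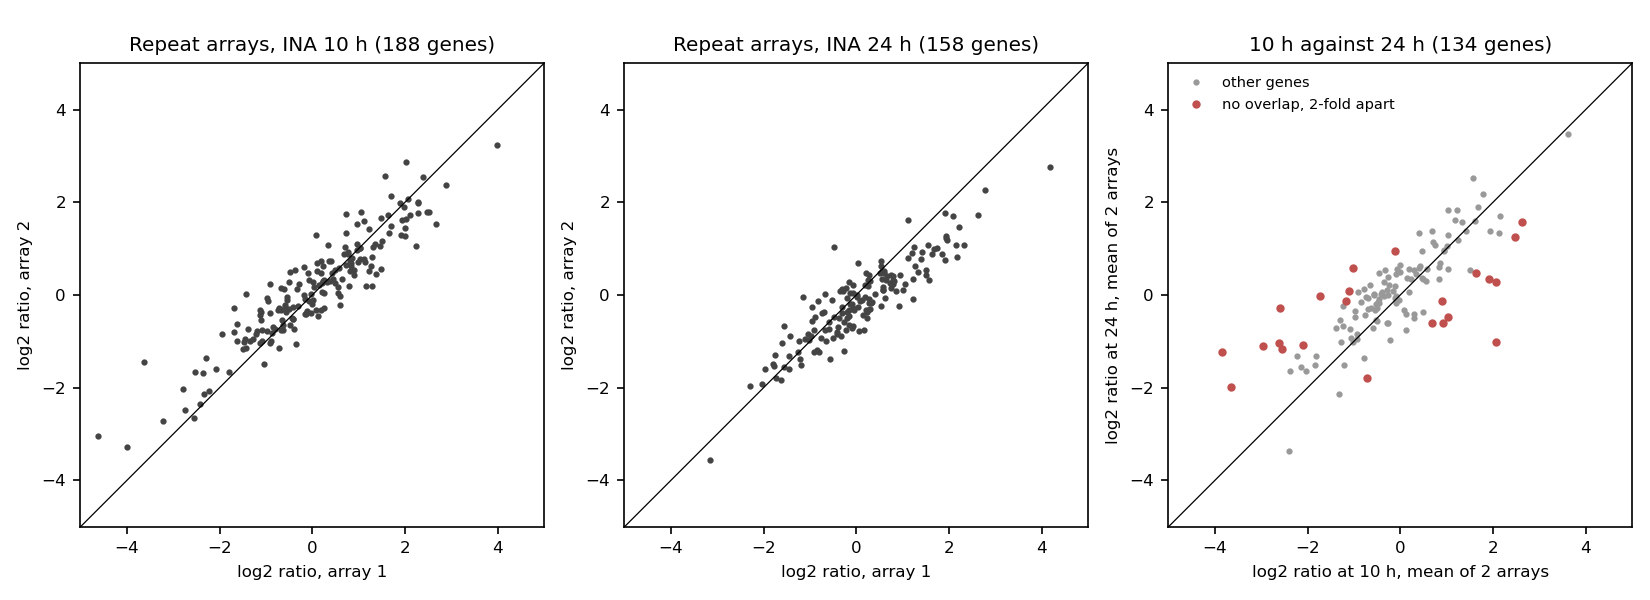
Log2 ratios of named genes on the first and second array of the same RNA at 10 h (left, 188 genes) and 24 h (middle, 158 genes), and mean ratios at 10 h against 24 h (right, 134 genes on all 4 arrays), with the line of equality. Red points mark the 23 genes whose 10 h and 24 h arrays did not overlap and whose means were 2-fold apart.

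Among genes high at 2 h were both measured alkenal reductases. AER, an alkenal reductase that removes reactive carbonyls, stood at 2.07 at 2 h, 0.87 at 5 h, -0.28 and 0.24 at 10 h and -0.29 and 0.08 at 24 h. Its homolog AT5G17000 had 2.07 at 2 h and 0.33 at 5 h, and then lay below 0 on the 3 later arrays that measured it. None of the 4 family members with a value at 5 h was 2-fold higher there. AT5G51830, a fructokinase-type gene, was the highest named gene at 2 h with 4.03 and had 2.12 at 5 h, 2.27 and 1.99 at 10 h and 0.96 on the second 24 h array. ABR1, an ethylene response factor-type repressor of abscisic acid signalling, had 3.64 at 2 h, above the 4 other agents that measured it (0.41 to 1.95), then 1.02 at 5 h and 0.15 at 24 h. Of the UDP-glycosyltransferases, a family that attaches sugars to hormones and to other small molecules, 10 had a value. At 2 h 4 of 8 were 2-fold higher, at 5 h 4 of 10, at 10 h 4 of 8 and at 24 h 1 of 9, against 27%, 13.1%, 20.1% and 9.19% of all measured genes, and none was 2-fold lower. UGT73B2, a flavonoid glucosyltransferase, had 2.83, 1.35, 2.67 and 1.52, and 0.98, and its neighbour UGT73B3 2.12, 1.23, 1.92 and 1.29, and 0.48. Neither could be tested for want of values in other conditions. UGT72E1, which acts on monolignol aldehydes, had 0.84 at 2 h, 1.81 at 5 h, 1.31 and 1.04 at 10 h and 2.15 and 1.07 at 24 h. Of the 4 tested members, 3 passed as higher, against 32.8% of all tested genes (59 of 180), namely UGT72E1 (1.36 ± 0.17), UGT73B1 (1.01 ± 0.24) and UGT85A2 (0.80 ± 0.21), with adjusted p up to 0.0021. UGT85A2 was not called without the 5 h conditions (0.58, adjusted p = 0.076).

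On the median scale a smaller set of genes was high late. AT5G50460, a subunit of the SEC61 channel through which proteins enter the endoplasmic reticulum, stood at -0.04 and -0.03 at 2 and 5 h, at 1.04 and 1.01 at 10 h and at 1.54 and 1.07 at 24 h, above all 5 other agents at both late times. AT5G07340, the endoplasmic reticulum chaperone calnexin 2, went from -0.82 at 2 h to 1.68 and 0.98 at 24 h. BZIP60, a transcription factor of the unfolded protein response, had 0.76, 0.82, 0.35 and 1.07, and 1.25 and 1.05. Of the 4 such genes measured at 24 h, 3 were 2-fold higher there and none of the 4 at 2 h, against 9.19% and 27% of all measured genes. The remaining gene, AT1G29310, showed no such rise, with 0.26, 0.51, -0.03 and 0.03, and 0.52 and 0.48. Its mean over times did not pass (0.32, limma, adjusted p = 0.12). In the mean over times BZIP60 (0.86 ± 0.23, adjusted p = 0.0025) and AT5G50460 (0.57 ± 0.23, adjusted p = 0.035) passed, and the latter did not without the first 24 h array (0.51, adjusted p = 0.053). ECS1 had 0.45 and 0.49 at 2 and 5 h and 2.21 and 1.47 at 24 h, and AT2G25510 went from 0.16 at 2 h to 2.78 and 2.26 at 24 h, with no overlap between the late and early arrays of either gene. PPDK, pyruvate orthophosphate dikinase, was 2-fold higher at 10 and 24 h alone (1.25 and 1.18).

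Peroxidases, respiratory enzymes and remorins were counted in the same way. These families too were drawn up by hand after their values were seen, so their shares give no independent evidence. Of 33 class III peroxidases on the array, 25 had a value and 5 had all 4 times. Among measured members, 1 of 10 was 2-fold higher at 2 h, 4 of 24 at 5 h, 4 of 6 at 10 h and 1 of 20 at 24 h. The shares of all measured genes were 27%, 13.1%, 20.1% and 9.19%, so the family as a whole was not raised above them at 2 and 24 h. Beside AT5G64120, AT2G37130 (1.11 ± 0.18) and AT4G37520 (0.97 ± 0.16) passed as higher, which makes 3 of the 4 tested against 32.8% of all tested genes. AT1G44970 (-1.24 ± 0.20) passed as lower, a call that was lost in the deposited values (-0.63, adjusted p = 0.099) and on the TUA5 scale (-0.36, adjusted p = 0.16). Of 7 tested enzymes of mitochondrial respiration and amino acid breakdown, 4 passed as higher, against 32.8% of all tested genes, and none as lower. They were NDB2, an alternative NADH dehydrogenase (1.36 ± 0.29), FDH, formate dehydrogenase (1.30 ± 0.19), AT4G26910 (1.19 ± 0.16) and AlaAT1, alanine aminotransferase (0.89 ± 0.16). NDB2 was highest at 2 h (2.04) and FDH at 10 h (1.98 and 1.90). The others did not pass, with 0.37 for ALDH7B4, 0.35 for MCCA and -0.36 for IVD. MCCB, a further member that was not tested, had -0.73, -0.52, -0.88 and -0.95 from the first time to the last on the median scale. The remorins AT2G45820 and AT3G61260, proteins of plasma membrane domains, both passed as lower, at -1.79 ± 0.18 and -1.42 ± 0.19, and both calls remained under every centring tried. They had -0.85 and -0.56 at 2 h against -2.61 and -1.65 at 5 h. Other families drawn up did not move as a set. Of 7 tested proteases, 2 passed as higher and 3 as lower, against 32.8% and 27.2% of all tested genes. Among 4 tested EF-hand proteins 1 passed as higher, as did 1 of 3 tested MATE transporters, and none of either as lower.

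Homologs of immune receptors and chloroplast proteins were lower on the median scale. The sets of this paragraph were likewise chosen with their values seen, and the shares are descriptive. Of 6 tested genes with TIR or NB-ARC domains, 5 passed as lower, against 27.2% of all tested genes, and none as higher, led by AT1G61180 at -1.31 ± 0.26, AT3G44670 at -1.04 ± 0.28 and AT4G19500 at -0.89 ± 0.26. At 2 h 5 of 8 measured members were 2-fold lower and at 24 h 1 of 9, where the shares of all measured genes were 10.5% and 9.19%. In the deposited values and on the TUA5 scale none of the 6 passed as lower, and on the latter 1 passed as higher. Of 4 chloroplast proteins, FUG1, PSAE-1 and the thylakoid ascorbate peroxidase TAPX (-0.80 ± 0.19) passed as lower, again against 27.2%. As deposited 1 of the 4 passed as lower, and on the TUA5 scale 1 passed in each direction and TAPX had 0.081. PSAE-1 was called in neither (-0.57 and -0.30). Of 4 tested beta-glucosidases, 3 passed as lower against 27.2% of all, PYK10 at -1.19 ± 0.36, BGLU33 at -0.63 ± 0.24 and BGLU22 at -0.56 ± 0.18, and none of them passed in the deposited values, on the TUA5 scale or after quantile normalization. BGLU22 (0.33) and BGLU33 (0.25) turned above 0 on the TUA5 scale, as did BGLU22 in the deposited values (0.051).

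Hormone markers were few. Of 24 genes listed for SA and systemic resistance, WRKY53, a transcription factor linked to SA and leaf senescence, was the only one among the named spots. It stood at 1.65 at 2 h, 1.18 at 5 h, 1.11 and 1.61 at 10 h and 0.61 on the second 24 h array. The values of the other agents lay below it at 2 h (-0.19 to 0.26), 5 h (-0.64 to 0.31) and 24 h (-0.77 to 0.34), over 4, 4 and 3 agents. At 10 h BABA, which gave no value for the gene at the other times, lay above INA (2.38 against 1.36). WRKY53 had too few values in all for a test. Of 18 genes listed for jasmonate and ethylene, 6 were present and 4 were tested. AT5G05600 and FAMT, a methyltransferase (0.66 ± 0.25, adjusted p = 0.024, and 0.56 with adjusted p = 0.063 under the replicate block), were higher, the thionin gene AT1G66100 was lower, and EIN3, the master regulator of ethylene responses, had -0.22 ± 0.18, which turned to 0.39 in the deposited values, 0.23 after quantile normalization and 0.66 (adjusted p = 0.0032) on the TUA5 scale. FAMT was not called without the first 10 h array (adjusted p = 0.071) or the first 24 h array (adjusted p = 0.062). AT1G66100 stood at -0.99 at 2 h, -1.86 at 5 h, -3.02 on the first 10 h array and -1.74 and -1.78 at 24 h. PDF1.2, the plant defensin of the ethylene and jasmonate branch, had 1.54 at 5 h, 2.02 and 2.86 at 10 h and 2.08 at 24 h, and no value at 2 h. THI2.1, another thionin, lay between -0.88 and -0.25 on the 6 arrays, and turned above 0 at 5 and 10 h in the deposited values and on the TUA5 scale.

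The mean over the 4 times was then compared with the mean of the 5 other agents, a contrast in which a dye effect of a gene cancels. INA differed in 49 of 180 genes, 27 higher (15%) and 22 lower (12.2%). AT3G62550, a universal stress protein-like gene, was higher by 2.40 ± 0.44. Its values under INA were 0.28 at 2 h, 2.29 at 5 h and 2.23 and 1.05 at 10 h. It had no INA value at 24 h, so this difference rests on 3 times under INA and on the time terms of the fit. The mean of each measured time was above all other agents, but the second 10 h array lay below SA (1.54) and BABA (1.15). CCL was higher by 2.21 ± 0.34, with 0.42 at 2 h, 2.82 at 5 h, 1.57 and 2.57 at 10 h and -0.49 and 1.04 at 24 h. The highest values elsewhere were 0.08, 2.06, 1.87 and -0.28, so the mean of each time was above the other 5 agents but the first array at 10 h and at 24 h was not. For both genes the nearest agents were SA and BABA, while BTH, ET and MeJA lay far below.

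The cold genes KIN2 (2.02 ± 0.33), COR47 (1.81 ± 0.24) and COR15A (1.77 ± 0.40) were higher under INA than under the other agents as well, as was RD2 (0.80 ± 0.23, adjusted p = 0.011), which makes 4 of the 4 tested on that list, against 15% of all tested genes. The RD2 call was lost without the 2 h conditions (0.57, adjusted p = 0.067) and in the deposited values (0.93, adjusted p = 0.096). That of COR15A was lost after quantile normalization (1.04, limma, adjusted p = 0.16). The list was chosen with earlier results of these data known, so the 4 of 4 is descriptive. At 2 h the INA value of KIN1, KIN2, COR15A, COR15B, COR47 and RD2 lay above that of each of the 5 other agents. For COR15A it was 1.62 against -2.35 to 0.75, and for COR47 1.49 against -2.06 to 0.56. After 2 h SA lay as high as INA or higher for COR15A (-0.33, -1.55 and -3.13 at 5, 10 and 24 h) and KIN2 (0.35, -0.70 and -1.61), and for COR47 at 24 h (-0.98). STZ, which was not tested, had 0.82 under INA at 5 h, below all 5 other agents (0.96 to 3.53). At 24 h KIN2, COR15A and COR47 were below 0 under all 6 agents. The difference between INA and the others in the early to late change was -0.75 ± 1.27 for COR15A and -0.51 ± 0.68 for COR47, and neither passed (adjusted p = 0.99 for both).

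Lower under INA than under the others were AT3G21670 (-1.85 ± 0.41) and AT2G26690 (-1.64 ± 0.20, adjusted p = 4.0e-06), AT1G62660, a vacuolar invertase (-1.54 ± 0.31), the glutaredoxin gene AT1G64500 (-1.46 ± 0.31) and EXO, a cell wall protein of brassinosteroid-promoted growth (-1.31 ± 0.28). Under SA and BABA the first 2 genes and AT1G64500 were low as well. AT2G26690 had -2.15 and -2.47 under SA and -2.43 and -3.18 under BABA at 5 and 10 h, and AT3G21670 had -7.42 and -4.89 under BABA. The higher values lay with BTH, ET and MeJA. Adjusted p among these 5 and the 5 named as higher reached at most 0.0025 (limma). AT1G64500 stood at -2.33 at 2 h, -1.74 at 5 h, -3.51 on the first 10 h array and -0.13 and 0.04 at 24 h, where the other agents ran from -0.92 (SA) to 2.53 (ET). EXO lay between -0.96 and 0.14 on the INA arrays and did not pass against untreated plants (-0.56 ± 0.25, adjusted p = 0.060), although it did without the second 10 h array (adjusted p = 0.027) or the second 24 h array (adjusted p = 0.032). Its mean turned to 0.050 in the deposited values and 0.33 on the TUA5 scale. Under SA, EXO lay below INA at 10 h (-1.39 against -0.26) and 24 h (-1.28 against -0.61). BABA lay above INA for this gene at each time, as did BTH, ET and MeJA. AT1G62660 was below all 5 other agents at 2, 5 and 24 h. The 49 calls became 28 without the 2 h conditions and 28 without the 5 h conditions, and 7 when the terms for time were left out.

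**Figure D4:**
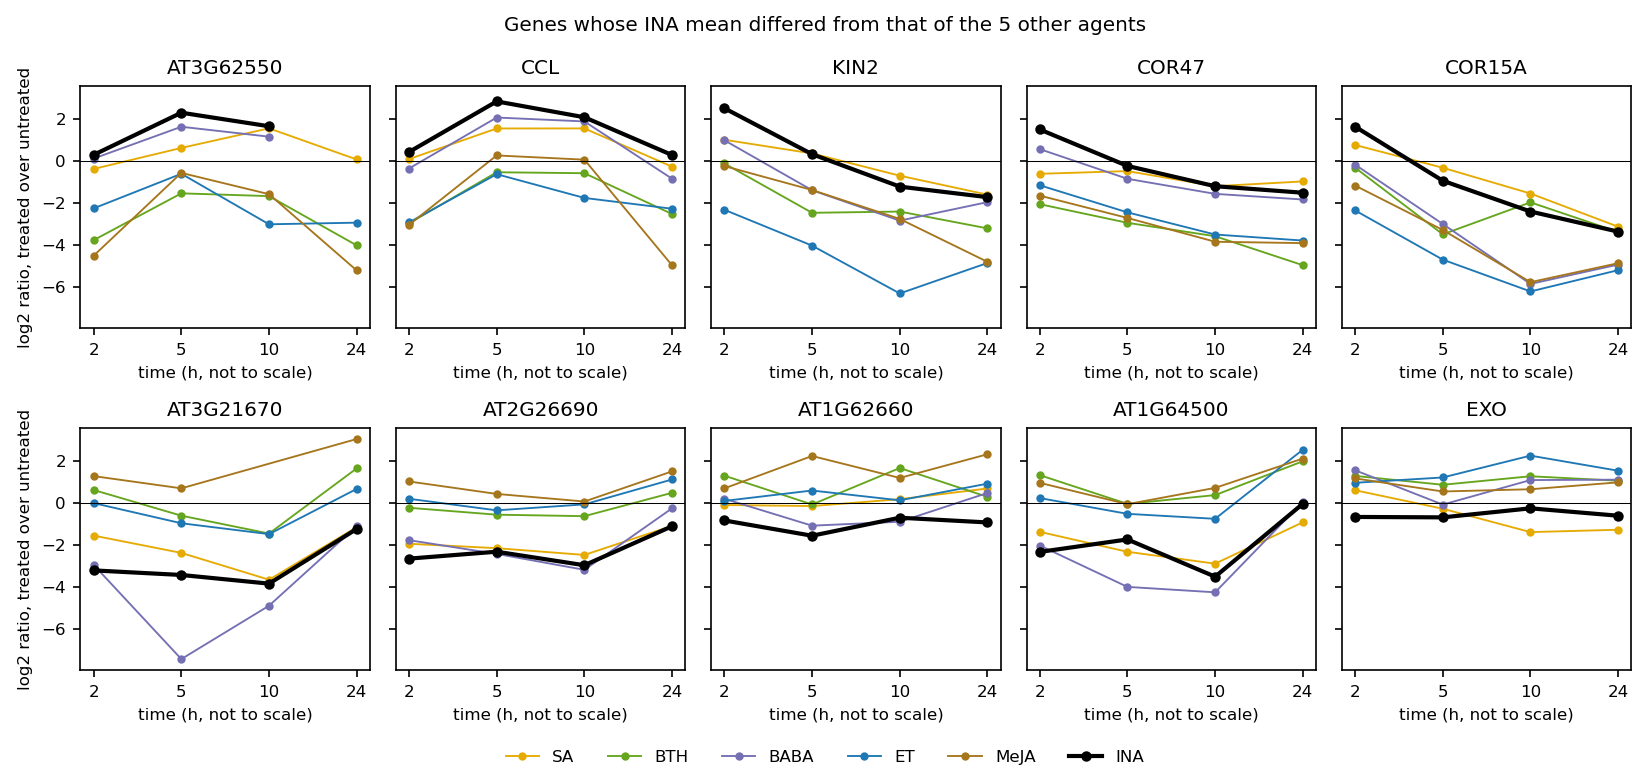
Log2 ratio of treated over untreated RNA (vertical axis) against time (horizontal axis, evenly spaced) for the 5 genes highest and the 5 lowest under INA relative to the 5 other agents, which are coloured lines; the thick black line is INA, with repeat arrays averaged, and each point is 1 RNA sample. The mean of CCL is above the other agents at each time, and those of the cold genes KIN2, COR47 and COR15A are above them at 2 h.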

How the data were processed

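Per the file headers and labels' protocols, the deposited values are log ratios of treated (Cy5) over untreated (Cy3) RNA, taken here as log2; the logarithm's base, background correction, filters and normalization: not given in the sources used here. Arrays were scanned and spots summarised by the authors before deposit. Spots were named through the platform annotation and RefSeq's TAIR10.1 table (415 of 416 genes matched; 884 spots have 1 symbol, none has several, and 1676 are unnamed here). Roles of genes given by locus are background knowledge. Arrays were median-centred and spots of a gene averaged, then repeat arrays. R 4.3.3 with limma 3.58.1 fitted all 24 conditions of 6 agents by least squares on the measured values, with moderated variances (prior degrees of freedom 8.16 for means, 5.36 for phases) and two-sided Benjamini-Hochberg adjusted p-values at 0.05. The model for means had a term per agent and per time. Genes with values in at least 20 conditions and 3 of 4 times per agent were tested (180, of which 137 complete). P-values reflect residual variation of conditions around the model, which may be partly technical, and not variation between plants. Alternatives were other centrings, filters, thresholds, variance settings, treatments of repeat arrays, times left out and a slope on log2 hours. The scripts were tested on simulated data. The members and lists were chosen with earlier results of these data known. Genes were named by a rule of 67 genes. It took the 10 highest and lowest called means with 1 sign at all times, and 5 per direction for each contrast and time. It added the 5 highest and lowest medians over times among untested genes with all 4 times, the listed genes and TUA5. Families and further examples were named after their values were seen. Family descriptions in the reference tables were not used here, so families were drawn up by hand. Repeat arrays share a number over INA 10 h, INA 24 h and BTH 5 h. Deviations of the first arrays from their pair's mean correlated over genes at 0.554, 0.513 and 0.424. An alternative fit of all arrays singly therefore carried a term for this number, called the replicate block here. The main fits averaged each pair and had no such term. The number of arrays limits the precision.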

Additional observations from a re-analysis of the deposited data

Results flagged for a closer look

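The difference between INA and the mean of the 5 other agents passed its own test in 49 genes (limma). The 10 at the ends were AT3G62550 (2.40), CCL (2.21), KIN2 (2.02), COR47 (1.81) and COR15A (1.77), higher under INA, and AT3G21670 (-1.85), AT2G26690 (-1.64), AT1G62660 (-1.54), AT1G64500 (-1.46) and EXO (-1.31), lower under INA, all on the log2 scale.

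The 1676 unnamed spots were used in no comparison. Among the 1023 of them with a value at all 4 times of INA, 68 were at least 2-fold higher and 52 at least 2-fold lower at every time.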

How the results depend on the processing

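The test values of 69 gene results were recomputed. Signs changed in some means over times, namely TAPX (0.081), BGLU33 (0.25), BGLU22 (0.33), EIN3 (0.66) and EXO (0.33) on the TUA5 scale, BGLU22 (0.051), EIN3 (0.39) and EXO (0.050) as deposited, and EIN3 (0.23) after quantile normalization, and values of single genes at single times turned with the centring as described. Calls were lost in 8 further results on the TUA5 scale, 10 as deposited, 7 after quantile normalization and 10 without time terms, among them AT3G28220 (-0.76, adjusted p = 0.055, TUA5 scale) and COR15A against the other agents (1.04, adjusted p = 0.16, quantile). The replicate block changed 1 of the 69 calls, that of FAMT, and trended variances changed none. With it 107 genes passed in the mean over times (101 of the 108) and 46 against the other agents (43 of the 49), and 0 in both phase tests.

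Genes past the test in the mean over times, 59 higher and 49 lower, were 86 and 15 as deposited, 118 and 13 on the TUA5 scale, 91 and 25 after quantile normalization, and 70 in all from the 4 INA conditions alone. Without 1 repeat array they were 104 to 111. Late minus early gave 1 gene as deposited (KIN2, lower) and 14 as a slope. Against the other agents, 21 passed as deposited (15 higher, 6 lower), 29 on the TUA5 scale (18 and 11), 28 without 2 h, 28 without 5 h, 7 without time terms, and 42 to 48 without 1 repeat array. 

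Genes past 2-fold in either direction as deposited were 223 at 5 h (219 higher, 4 lower) and 172 at 10 h (157 and 15), and on the TUA5 scale 175 at 5 h (168 and 7), 144 at 10 h (127 and 17) and 216 at 24 h (215 and 1). At 2 h the split was 118 and 9 as deposited and 111 and 12 on the TUA5 scale. At 1.5-fold they were 180, 150, 159 and 98 at 2, 5, 10 and 24 h, at a log2 of 1.5 they were 50, 42, 49 and 23, and 79 at 24 h with values read as natural logarithms. Without 1 repeat array they were 69 (of 198 genes) to 103 (of 263) at 10 h. At 24 h they were 41 (of 276 genes) to 56 (of 165).

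Genes past 2-fold at all times were 42 on the TUA5 scale, 43 at 1.5-fold, 4 at a log2 of 1.5, 38 with natural logarithms, and 13 to 17 without 1 repeat array. Early genes were 24 as deposited, 16 on the TUA5 scale, 21 at a log2 of 1.5, and 28 to 46 without 1 repeat array. Late genes were 66 on the TUA5 scale and 17 to 24 without 1 repeat array. Genes past 2-fold in opposite directions were 8 as deposited, 3 on the TUA5 scale, 16 at 1.5-fold, 2 at a log2 of 1.5, 11 with natural logarithms, and 4 to 6 without 1 repeat array. The causes were not tested. Signal over background and the spread between plants are unknown.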

Other observations

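Spots without a gene name gave the following counts. Of those measured, 275 of 1229 were at least 2-fold higher at 2 h, 234 of 1444 at 5 h, 282 of 1259 at 10 h and 133 of 1166 at 24 h. At least 2-fold lower were 195, 255, 260 and 115 in the same order, so that both directions were least numerous at 24 h, on the median scale.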
